A study of Mus musculus and Homo sapiens
Mus musculus with 16 samples.

Results

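The sets described here are the long-range promoter contacts of Six3 and Six6, a pair of homeobox genes of the anterior head, in mouse fetal forebrain. They were chosen as every called interaction in which either 10 kb bin overlapped the mm10 body of Six3 or Six6. There were 103 such distinct bin pairs of 58543 in all, 97 of Six3 and 6 of Six6, and the members were 2 of 20665 autosomal protein-coding genes. The libraries were PLAC-seq, which joins chromatin that lies close in the nucleus after MboI digestion and then enriches the junctions with an antibody, here against H3K4me3, a histone mark of active promoters. The groups were forebrain from mouse fetuses at embryonic day E12.5 (2 libraries) and at E16.5 (2 libraries). Both groups were untreated as far as the labels say, and the sources used here give no strain, genotype, sex or pooling. The other 12 of the 16 samples of the series, single-cell libraries, were not analysed here. For E12.5 replicate 1 the labels give the same tissue, stage and assay, but its extraction field describes adult cortex and its PLAC-seq text stands in another field; its title and characteristics were followed. The labels do not say whether the 2 libraries of a stage are separate litters. The p-values therefore cover the spread between these 4 libraries alone, and part of it may be technical.

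Proteins of this family, named after the fly gene sine oculis, carry a homeodomain that binds DNA beside a conserved domain that binds partner proteins. Six3 and Six6 form 1 branch of the family, and both are known from the eye field, the retina and the ventral forebrain. SIX3 is known as a repressor that works with Groucho (TLE) corepressors, holds back Wnt signalling in the anterior neural plate and later acts in the striatal lineage. SIX6 is known for the growth of retinal, hypothalamic and pituitary progenitors.

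Six3 (gene 20473) spans chr17:85613608-85626191 in GRCm38.p6, the RefSeq assembly of the mm10 sequence. Its body lies in 2 bins. The lower-coordinate bin, chr17:85610001-85620000, is shared with Six3os1, a long noncoding RNA gene, so their contacts cannot be told apart there. The higher-coordinate bin, chr17:85620001-85630000, holds the RefSeq start used here, at position 85620834 on the plus strand. This start lies inside the Six3 body, whose 5′ end at 85613608 is in the lower-coordinate bin. It was the only Six3 start among the promoters used, and the 5′ end of the body was not examined as a promoter. In what follows, the Six3 start means position 85620834. Six6 spans chr12:72939882-72944899, also on the plus strand. Its start lies in the last 119 bases of the body's first bin, chr12:72930001-72940000, and the other 4899 bases lie in chr12:72940001-72950000.

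The 250 bases before each start are shown because an H3K4me3 experiment reads contacts through such promoters. The Six3 stretch lies inside the Six3 body, and the Six6 stretch lies before the Six6 body. Capitals mark CCAAT or its reverse complement ATTGG. Both sequences are RefSeq's, from GRCm38.p6, 5′ to 3′ on the plus strand, at chr17:85620584-85620833 for Six3 and chr12:72939632-72939881 for Six6.
Six3: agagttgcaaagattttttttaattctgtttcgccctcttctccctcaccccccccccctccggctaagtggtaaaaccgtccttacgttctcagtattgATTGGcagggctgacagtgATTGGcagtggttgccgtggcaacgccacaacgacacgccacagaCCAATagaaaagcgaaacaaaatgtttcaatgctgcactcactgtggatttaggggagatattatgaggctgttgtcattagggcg
Six6: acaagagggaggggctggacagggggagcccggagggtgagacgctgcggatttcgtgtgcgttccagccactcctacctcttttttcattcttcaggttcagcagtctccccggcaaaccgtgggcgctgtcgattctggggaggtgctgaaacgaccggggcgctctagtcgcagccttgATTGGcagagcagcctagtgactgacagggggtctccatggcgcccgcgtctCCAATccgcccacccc
The Six3 stretch held 48.8% G and C with 10 CpG, and the Six6 stretch 62.8% with 17 CpG. Of 31396 autosomal promoters of this length, 38.3% held at least 10 CpG and 24.1% at least 17. CCAAT was found 3 times before Six3 (1 forward, 2 reverse) and 2 times before Six6 (1 in each direction), while 33.7% of promoters held it at least once and 2.75% at least 3 times. TAAT, a core that homeodomains bind, was found on either strand 3 times before Six3 and 0 times before Six6. At least 1 was in 54.8% of promoters and at least 3 in 17.1%. GATC, the site MboI cuts, was in neither stretch and in 41.6% of promoters. The longest run that both stretches shared on the plus strand was TTGATTGGCAG, 11 bases that contain ATTGG. It ended 142 bases before the Six3 start and 60 bases before the Six6 start. On either strand 11 of the 31396 promoters (0.0350%) held it. Those 11 include Six3 and Six6, from which the run was taken, so this share is not an independent background. The motifs were chosen after the sequences were seen, and a match describes letters, not a bound site.

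The E12.5 lists held 18413 and 16075 interactions and the E16.5 lists 35291 and 36794, with 405491 to 911710 read pairs. Listed means that the pair passed the authors' threshold in that library, on autosomes and 20 to 1000 kb apart. The E16.5 lists were longer, the sequencing depth is unknown, and an unlisted pair may still be in contact. Among contacts that averaged 40 or more read pairs, the 2 libraries of a stage differed by more than counting noise, with a chi-square per degree of freedom of 1.30 at E12.5 and 1.75 at E16.5. The 10 forebrain marker genes had 331 and 336 listed interactions at E12.5 against 350 and 342, none of the 10 without one. Of the 9 that were tested for contact number, 4 fell (Emx2, Lhx2, Dlx2 and Pou3f3) and Tbr1 rose, with a median log2 change of -0.84. The 6 hindbrain and spinal cord markers had 95 and 59 against 39 and 19, with En2 at 0. Of the 5 tested, Hoxb3 (62, 38, 21 and 7, in the order E12.5 replicates 1 and 2, then E16.5 replicates 1 and 2) and Hoxb4 (19, 13, 7 and 2) fell in the contact number test. Hoxb4 reached the minimum sum of 10 for that test only through its E12.5 numbers. The 7 autosomal markers of blood, vessel, muscle and liver had 1 to 4 in any library, with Hbb-bt, Kdr, Alb and Afp at 0.

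Six3 stood among the most richly connected gene bodies at both stages. The E12.5 lists gave it 64 and 67 interactions and the E16.5 lists 68 and 55. The numbers overlapped between stages, with means of 65.5 ± 2.12 and 61.5 ± 9.19 (SD, n = 2 each; exact permutation p = 1, two-sided). Among the 5096 autosomal genes whose body also lies in 2 bins, Six3 ranked 5th and 3rd by this number at E12.5 and 7th and 17th at E16.5. In the same libraries 64.3% to 77.3% of those genes had none.

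The Six3 interactions held 1819 and 1764 read pairs at E12.5 against 1499 and 1146 at E16.5. Both E16.5 sums lay below both E12.5 sums, although the E16.5 lists held more read pairs in all. The means were 1791.5 ± 38.9 and 1322.5 ± 249.6 (SD, n = 2 each; exact permutation p = 0.33, the smallest a design of 2 against 2 allows). A sum lower in both E16.5 libraries was found for 4.14% of the 4036 genes tested. The read pairs come from junctions enriched with an H3K4me3 antibody. In bulk forebrain, fewer cells with these contacts, fewer contacts per cell and weaker H3K4me3 enrichment at Six3 cannot be told apart.

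As a share of each library's list, Six3 had 0.348% and 0.417% of interactions at E12.5 against 0.193% and 0.149% at E16.5. The groups did not overlap. The mean share was 0.382% ± 0.0489 at E12.5 and 0.171% ± 0.0305 at E16.5 (SD, n = 2 each), a 2.23-fold higher share at E12.5 (exact permutation p = 0.33). Its share of read pairs went from 0.407% and 0.435% to 0.168% and 0.126%, which was 2.87-fold higher at E12.5 with the same p. With only the summit of each of the authors' clusters kept, Six3 had 7 and 5 interactions at E12.5 against 11 and 8 at E16.5. The mean share was then 0.124% at E12.5 and 0.0968% at E16.5 (exact permutation p = 0.67).

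**Figure D1:**
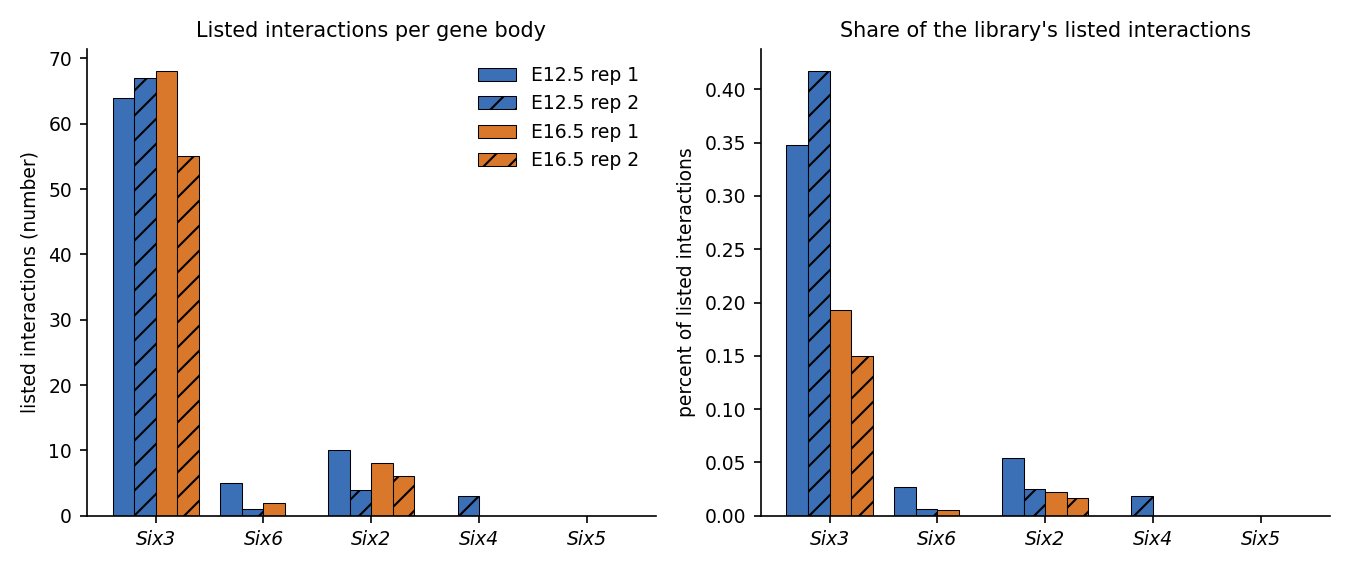
Listed interactions per gene body (left, number) and as a percentage of each library's listed interactions (right) for Six2 to Six6. Each bar is 1 library, blue for E12.5 and orange for E16.5, hatched for replicate 2. Six3 has 55 to 68 interactions in every library, and its share of the list is higher in both E12.5 libraries.

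In the test across genes, Six3 fell relative to the longer E16.5 lists. The test, edgeR's quasi-likelihood test on the number of interactions per gene body with Benjamini-Hochberg adjustment, gave a log2 change of -0.93 (E16.5 minus E12.5, SE 0.18, adjusted p = 0.00389), 1.91-fold lower. Of 4036 genes with a sum of at least 10, 14.5% were called, 3.49% lower and 11% higher at E16.5, and the median log2 change of all was 0.25. In the same test 2 of 5 hindbrain and spinal cord markers (Hoxb3 and Hoxb4) and 4 of 9 forebrain markers fell, and their part in the Six3 result was not tested. With a minimum sum of 20, edgeR called 164 of 2186 genes lower and 345 higher. Calls in both directions were thus more frequent among genes with more interactions, such as Six3. The log2 change of Six3 lay between -1.14 and -0.77 when each library was left out in turn. The call was lost without E12.5 replicate 1 (log2 -1.04, adjusted p = 0.240), with DESeq2 (log2 -0.89, adjusted p = 0.135) and with read pairs in place of interactions (log2 -1.48, edgeR adjusted p = 0.0680), and the sign turned when each of the authors' clusters of neighbouring pairs was counted once (log2 0.0079, adjusted p = 0.993).

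Every listed Six3 contact reached to one side. The partner bins of all 64, 67, 68 and 55 interactions lay at lower coordinates, which is upstream of Six3, and 0 lay on the side of its neighbour Six2. The nearest partner bin lay 110 kb away and the farthest 920 kb. Contacts on 1 side alone were also seen for 67 of the 162 genes (41.4%) with a sum of at least 100 and partners outside their body, and a nearest partner at 110 kb or beyond for 94 (58.0%). Both held for 41 of them.

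The distances were longer at E16.5. The median distance of the Six3 interactions was 315 and 390 kb at E12.5 against 445 and 420 kb at E16.5, so the groups did not overlap. The mean median was 352.5 ± 53.0 and 432.5 ± 17.7 kb (SD, n = 2 each; exact permutation p = 0.33), 80.0 kb longer at E16.5. Over all listed interactions the median distance was 260 kb in both E12.5 libraries and 300 and 290 kb at E16.5. With only the summit of each of the authors' clusters kept, the Six3 difference turned to -17.5 kb.

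**Figure D2:**
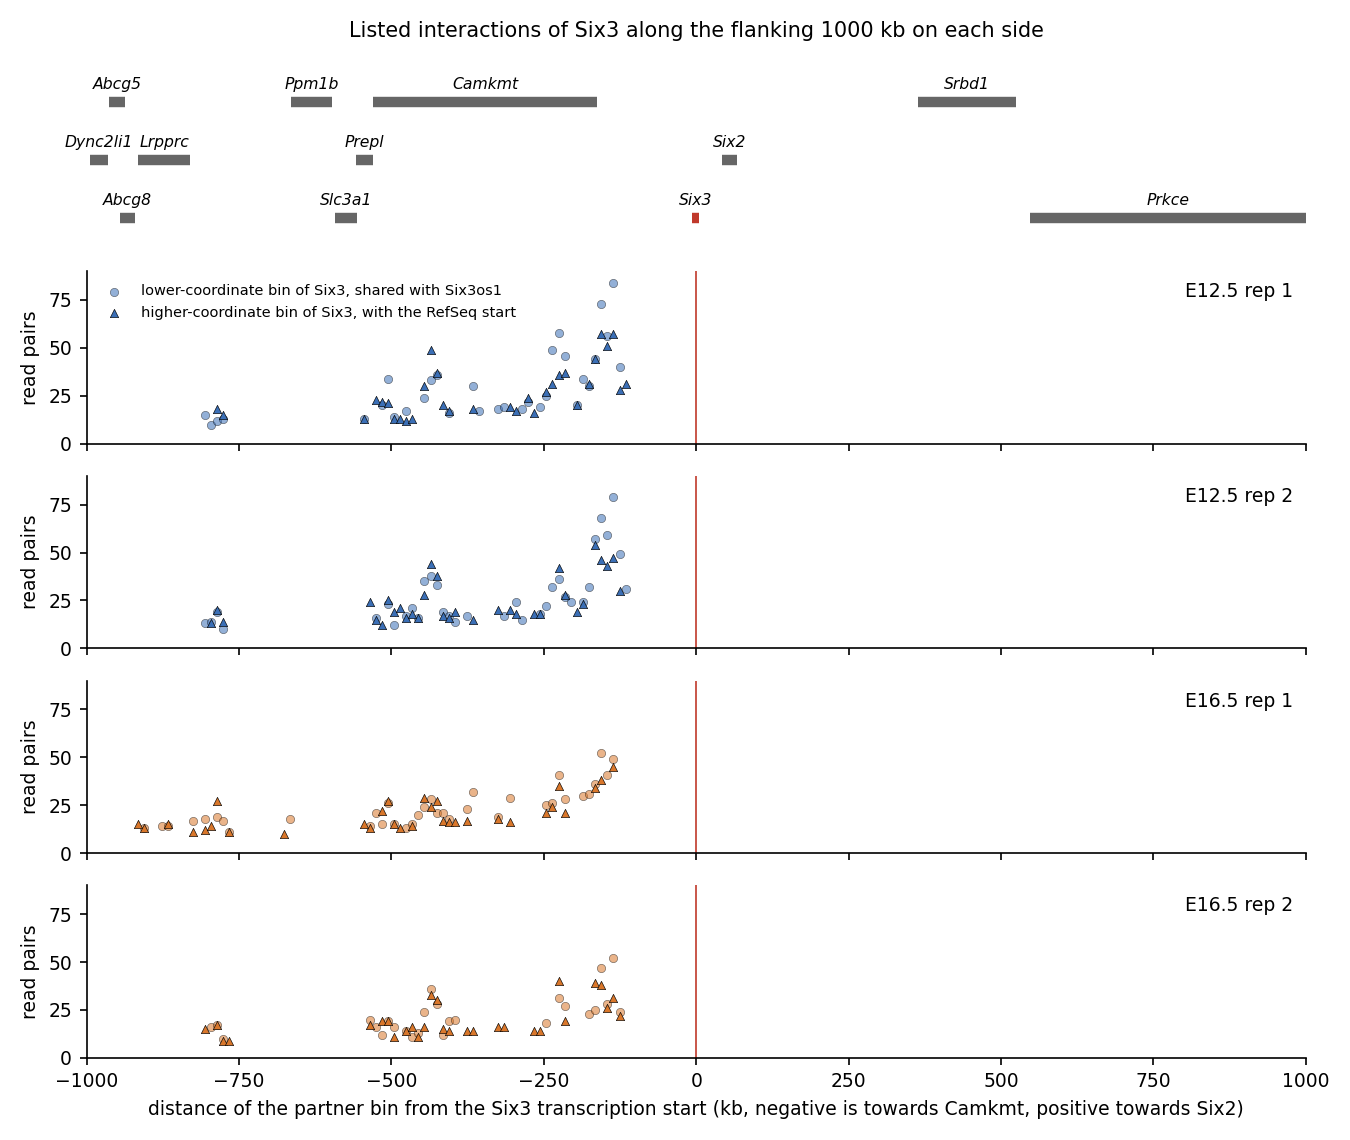
Each point is a listed Six3 interaction, placed by the distance of its partner bin from the Six3 start (kb) and by its read pairs, with 1 panel per library and gene bodies drawn above. Circles come from the lower-coordinate Six3 bin and triangles from the bin with the RefSeq start. All points lie on the Camkmt side, from 110 to 920 kb, and the tallest of each library ends in the stretch between Camkmt and Six3.

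The 2 Six3 bins shared many of their partners. The lower bin had 32, 34, 36 and 26 interactions and the bin with the start 32, 33, 32 and 29. Of 53 partner bins in any library, 44 were listed with both Six3 bins. Within a library it was 24 of 40, 25 of 42, 26 of 42 and 21 of 34. The 97 bin pairs are therefore not independent of each other, and the authors' clustering grouped those of a library into 7, 5, 11 and 8 clusters.

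The tallest contacts ended in the stretch between Camkmt and Six3, which holds no protein-coding gene. The partner bin with most read pairs was chr17:85480001-85490000, with 141 and 126 read pairs at E12.5 against 94 and 83 at E16.5 over both Six3 bins. Next came chr17:85460001-85470000 with 130, 114, 90 and 85 read pairs. In both bins each E16.5 library was below each E12.5 library. The bin between them, chr17:85470001-85480000, had 107 and 102 read pairs against 41 and 54. The other 2 of the top 5 lay in Camkmt, the gene of calmodulin-lysine N-methyltransferase. These were chr17:85450001-85460000 with 88, 111, 70 and 64 read pairs and chr17:85390001-85400000 with 94, 78, 76 and 71.

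The stretch between Camkmt and Six3, 110 to 160 kb from Six3, held 477 and 452 read pairs at E12.5 against 225 and 268 at E16.5. Its means were 464.5 ± 17.7 and 246.5 ± 30.4 (SD, n = 2 each; exact permutation p = 0.33), an E16.5 to E12.5 ratio of 0.531. The number of interactions there was 9 and 9 against 5 and 8. Camkmt, 160 to 520 kb away, took most of the Six3 signal at both stages. It held 1210 and 1154 read pairs at E12.5 against 942 and 732 at E16.5 (ratio 0.708), which was 62.8% to 66.5% of the Six3 read pairs of a library.

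The far end did not show lower sums at E16.5. Prepl, the gene of a prolyl endopeptidase-like hydrolase, had 49 and 55 read pairs against 63 and 53. These sums include the bin chr17:85090001-85100000, where Prepl and Camkmt meet and which was not counted with Camkmt. Without that bin both E16.5 sums for Prepl were above both E12.5 sums. The stretch between Lrpprc and Ppm1b, 680 to 810 kb away, had 83 and 103 against 139 and 93. The stages overlapped in Prepl with the shared bin and in this stretch. As a share of the Six3 read pairs this stretch had 4.56% and 5.84% at E12.5 against 9.27% and 8.12% at E16.5 (exact permutation p = 0.33). Contacts with Lrpprc, a gene for mitochondrial mRNA stability, were listed in E16.5 replicate 1 alone, with 8 interactions and 112 read pairs. The same library alone had 1 interaction with the phosphatase gene Ppm1b, with 18 read pairs.

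**Figure D3:**
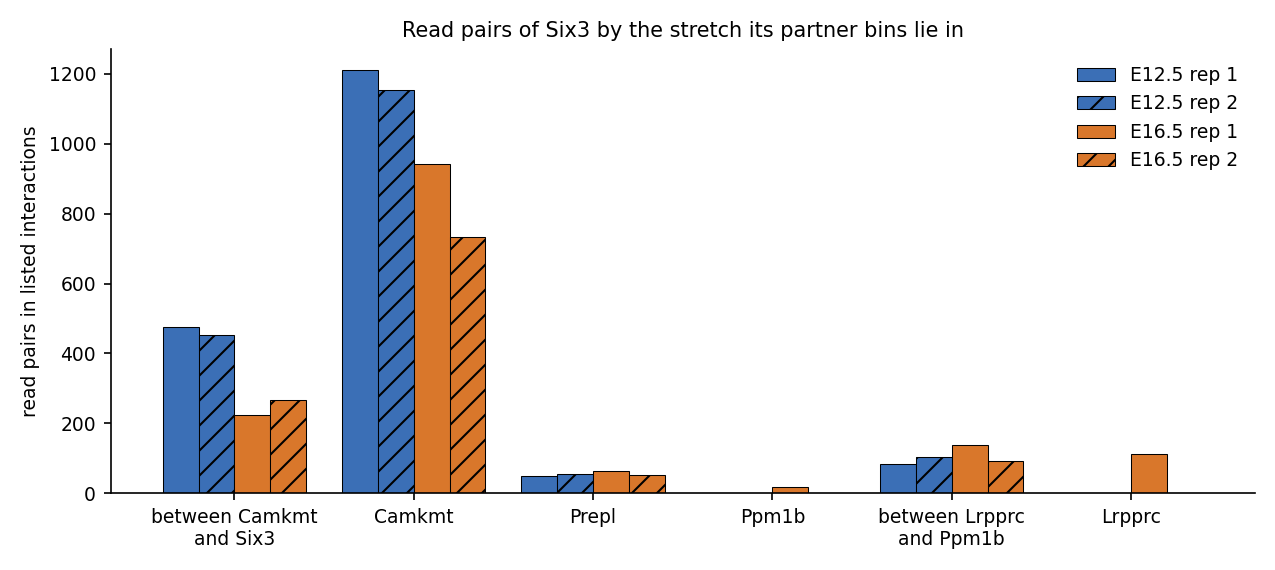
Read pairs in listed Six3 interactions by the gene or stretch that the partner bin lies in, ordered from near to far. The bin where Prepl and Camkmt meet is counted with Prepl. Each bar is 1 library, blue for E12.5 and orange for E16.5, hatched for replicate 2. Sums for Camkmt and for the stretch next to Six3 are lower in both E16.5 libraries, and sums for Prepl and beyond are not.

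Many Six3 contacts recurred from library to library. Of its 97 bin pairs, 32 (33.0%) were listed in all 4 libraries, against 11.7% of all 58543. At least 1 library of each stage listed 63 (64.9%, against 30.4% of all). Pairs listed at E16.5 alone made up 17.5% of the Six3 pairs and 57.3% of all pairs, while pairs listed at E12.5 alone made up 17.5% and 12.4%. These shares are descriptions, without a test. If a partner 1 bin away also counts, 67 of the 97 Six3 pairs recurred in all 4 libraries.

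Both E12.5 libraries and neither E16.5 library listed 6 Six3 pairs (6.19%, against 1.83% of all). The tallest joined the bin with the start to chr17:85420001-85430000 in Camkmt, with 20 and 19 read pairs over 200 kb. That bin was also joined to chr17:85090001-85100000, where Prepl and Camkmt meet, with 23 and 15 read pairs over 530 kb, and to chr17:85320001-85330000 in Camkmt with 17 and 18. The lower bin had 19 and 18 read pairs with chr17:85360001-85370000 and 19 and 17 with chr17:85300001-85310000, both in Camkmt. All of these named pairs held 15 to 23 read pairs in a library.

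Both E16.5 libraries and neither E12.5 library listed 4 pairs (4.12%, against 15.2% of all). The lower bin met chr17:85080001-85090000 in Prepl with 14 and 20 read pairs. The bin with the start met chr17:85240001-85250000 in Camkmt with 17 and 14. It also met chr17:84810001-84820000, which holds the noncoding gene Gm46582, with 12 and 15 read pairs over 810 kb, and chr17:84850001-84860000, which holds the pseudogene Gm9400, with 11 and 9 over 770 kb. Of the 24 pairs that a single library listed, 12 came from E16.5 replicate 1 and 1 from E16.5 replicate 2.

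Where the same Six3 contact was listed in all 4 libraries, its read pairs could be compared directly. Of 32 such contacts, 11 fell, 0 rose and 21 did not pass (edgeR's quasi-likelihood test, adjusted p under 0.05 over 6875 contacts). The test called 10.5% of all contacts, 4.58% lower and 5.88% higher at E16.5. The median log2 change of the 32 was -0.67, from -1.10 to -0.09, beside a median of -0.01 over all 6875. Before scaling, both E16.5 libraries had fewer read pairs than both E12.5 libraries for 12 of the 32 (7.87% of all contacts) and more for 2 (50.7% of all).

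The contact with the smallest p joined the lower Six3 bin to chr17:85480001-85490000, 130 kb away, with 84 and 79 read pairs at E12.5 against 49 and 52 at E16.5. The groups did not overlap, and the log2 change was -1.05 (SE 0.23, edgeR adjusted p = 0.00108), 2.07-fold lower after scaling. Its observed over expected ratio was 4.13 and 4.40 at E12.5 against 2.44 and 3.43 at E16.5. The same Six3 bin met chr17:85470001-85480000, 140 kb away, with 56 and 59 read pairs against 41 and 28 (log2 -1.10, SE 0.25, edgeR adjusted p = 0.00166). It met chr17:85450001-85460000 in Camkmt, 160 kb away, with 44 and 57 against 36 and 25 (log2 -1.09, SE 0.26, edgeR adjusted p = 0.00277).

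The Six3 contacts that fell lay 130 to 440 kb apart. All 5 tested contacts in the stretch between Camkmt and Six3 fell, with a median log2 change of -0.87. In Camkmt 6 of 24 fell, with a median of -0.66. Between Lrpprc and Ppm1b 0 of 3 passed, with a median of -0.15. Among all contacts of 110 to 170 kb, 71 of 1201 were called lower and 43 higher, with a median of -0.09, and 7 of the 8 Six3 contacts at that distance were called lower. Whether the near and far Six3 contacts differ from each other was not tested.

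**Figure D4:**
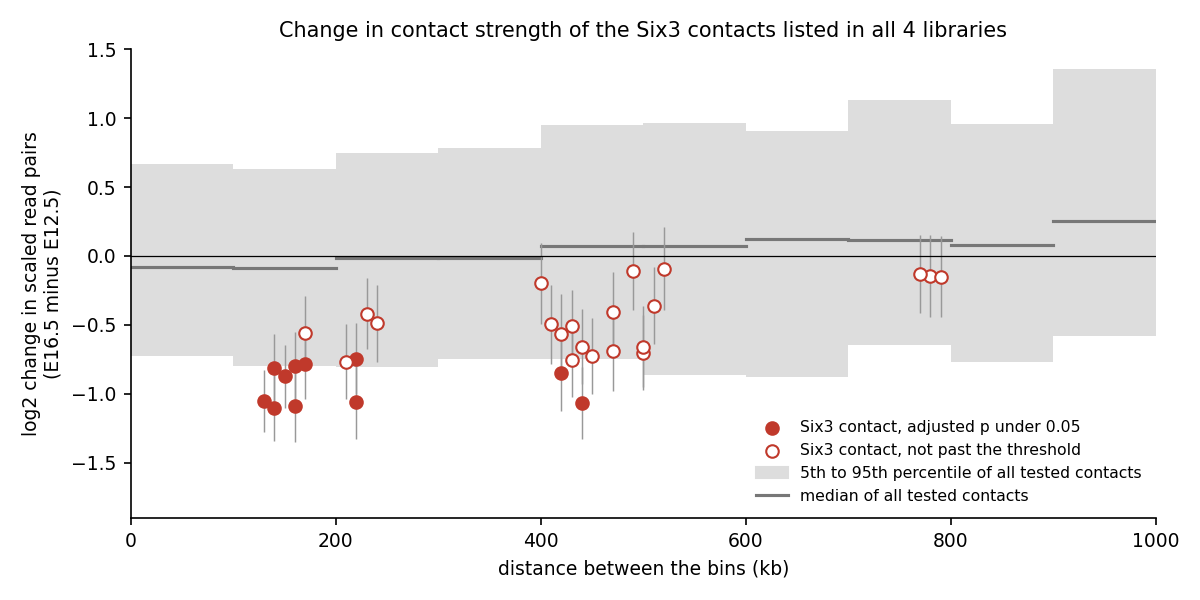
Log2 change in scaled read pairs (E16.5 minus E12.5) of the 32 Six3 contacts listed in all 4 libraries, against the distance between their bins (kb). Points are contacts with SE bars, filled where the adjusted p is under 0.05, and the grey band and line are the 5th to 95th percentile and the median of all 6875 tested contacts per 100 kb. All 32 points lie below 0, and the filled ones lie at 130 to 440 kb.

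The count of 11 depended on how the read pairs were scaled. With the authors' expected count of each contact as an offset, 0 of 32 were called by edgeR (18 of all 6875 contacts, all higher at E16.5), 2 had an unadjusted p under 0.05, and the median log2 change was -0.13, with 21 of 32 below 0. The expected counts of these 32 contacts summed to 245 and 232 at E12.5 against 233 and 189 at E16.5, against observed sums of 1086, 1038, 875 and 791. DESeq2 called 1 of the 32 and 98 of all 6875, and edgeR called 4 without E12.5 replicate 1, 6 without E12.5 replicate 2 and 7 without E16.5 replicate 1. The sources used here do not say what the expected count adjusts.

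Six6 had few contacts, and they were short. It had 5 and 1 listed interactions at E12.5 against 2 and 0 at E16.5, with 177, 27, 83 and 0 read pairs. The numbers overlapped between stages (3.00 ± 2.83 and 1.00 ± 1.41, SD, n = 2 each; exact permutation p = 0.67). Its share of the list was 0.0272% and 0.00622% at E12.5 against 0.00567% and 0% at E16.5 (exact permutation p = 0.33). With a sum of 8 it stayed below the minimum of 10 for the test across genes, and without that minimum the log2 change was -2.17 (edgeR adjusted p = 0.325). Among the 5096 genes with 2 bins it ranked 294th, 837th, 1044th and 1819th, the last shared with all genes at 0.

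The Six6 contacts ran both ways, 90 to 110 kb long. On the lower side there were 2 and 1 in the E12.5 libraries and 0 in both E16.5 libraries. On the higher side there were 3, 0, 2 and 0, so replicate 1 of each stage listed contacts there and replicate 2 did not.

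The lower-side contacts of Six6 held 22 to 29 read pairs each, all at E12.5. The partner chr12:72840001-72850000, which holds the noncoding gene Gm40441, had 22 read pairs with the start bin in replicate 1 and 27 with the main bin in replicate 2. The bin chr12:72850001-72860000 had 29 read pairs with the main bin in replicate 1. Observed over expected ratios of the Six6 contacts lay between 2.44 and 3.03, near the minimum of 2 seen in the lists. The median ratio of all Six3 contacts, most of them longer, was 4.00 to 4.33 in a library. For the Six3 contacts of 110 to 160 kb, in the stretch between Camkmt and Six3, it was 3.24 and 2.75 at E12.5 against 2.58 and 2.43 at E16.5. No Six6 pair was listed in 3 or more libraries, so contact strength could not be tested.

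Other family members were sparse as well. Six2, the nephron progenitor gene 36.5 kb beyond Six3, had 10 and 4 interactions at E12.5 against 8 and 6 at E16.5 over 3 bins (log2 -0.83, SE 0.49, edgeR adjusted p = 0.324). All Six2 partners lay at higher coordinates, away from Six3, and 0 were shared with it as an interaction. Six4 had 3 in E12.5 replicate 2 and 0 elsewhere, and Six5 had 0 in every library.

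Most contacts of Camkmt were with Six3. It had 54 and 51 interactions at E12.5 against 52 and 40 at E16.5, of which 47, 50, 42 and 38 were with Six3, or 89.8% in all. It fell in the test (log2 -1.03, SE 0.20, edgeR adjusted p = 0.00401), and the Camkmt and Six3 values rest on largely the same interactions. The Camkmt call was lost in 6 of 16 alternatives: with its gene-end bins alone (log2 -0.80, edgeR adjusted p = 0.499), within 200 kb (adjusted p = 0.0889), with DESeq2 (adjusted p = 0.109), with read pairs (adjusted p = 0.0740), with clusters counted once (adjusted p = 0.985) and without E12.5 replicate 1 (adjusted p = 0.240). Prepl had 4, 3, 6 and 5, of which 72.2% were with Six3 (edgeR adjusted p = 0.895). All 8 interactions of Lrpprc were with Six3. Past Six2, the protein kinase C gene Prkce shared none with Six3 and rose, from 10 and 10 to 47 and 53 (log2 1.47, SE 0.28, edgeR adjusted p = 0.00356).

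Cofactors and pathway genes around SIX3 and SIX6 were counted with the same test, in which 11% of genes rose and 3.49% fell. Of the 11 cofactors of the Eya, Dach and Groucho families, 5 were tested, 0 rose and 1 fell, with a median log2 change of -0.47. Tle3, a Groucho corepressor, had 58 and 68 interactions at E12.5 against 63 and 69 at E16.5, which overlapped, and fell relative to the lists (edgeR adjusted p = 0.00778). Dach1 had 9, 12, 8 and 8 (edgeR adjusted p = 0.0582).

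Among 18 regulators of the eye field and anterior neural plate, 13 were tested, 7 fell and 0 rose, with a median log2 change of -1.08. For 7 of the 13 the raw number was lower in both E16.5 libraries (3.39% of all genes), and for 3 it was higher in both (64.5% of all genes). Lhx2, needed for the optic vesicle, had 100 and 99 against 78 and 91 (edgeR adjusted p = 0.000437). Pax6, an eye and cortical progenitor factor, had 41 and 34 against 24 and 14 (edgeR adjusted p = 0.000927). Fezf1 had 10 and 10 against 2 and 2 (edgeR adjusted p = 0.00158), and Otx2, an anterior head factor, 11 and 6 against 1 and 0 (edgeR adjusted p = 0.00260). Both reached the minimum sum of 10 only through their E12.5 numbers, so that filter favoured a fall. Sox2 had 59 and 61 against 63 and 49, which overlapped (edgeR adjusted p = 0.00479). The hindbrain markers Hoxb3 and Hoxb4 fell in the same comparison, beside these genes and those of the groups that follow, and their part in the result was not tested.

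Of 10 signals and targets set against SIX3, 8 were tested, 4 fell and 0 rose (median log2 -0.90). Lef1, a transcription factor of the Wnt pathway, had 25 and 29 interactions against 11 and 18 (edgeR adjusted p = 0.00154). Ccnd1, a cyclin gene, had 14 and 16 against 9 and 8 (edgeR adjusted p = 0.00581). Axin2, a Wnt target and inhibitor, had 30 and 32 against 23 and 30, which met at 30 (edgeR adjusted p = 0.00970). Ccnd2 had 36 and 40 against 35 and 43, which overlapped (edgeR adjusted p = 0.0203). Shh, which SIX3 is known to activate in the ventral forebrain, had 16, 12, 24 and 16 and did not pass (edgeR adjusted p = 0.598).

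Of 18 striatal lineage regulators, 14 were tested, 1 rose and 3 fell (median log2 -0.28). The gene that rose was Foxp1, a factor of striatal projection neurons, from 15 and 7 to 41 and 48 (edgeR adjusted p = 0.0216). The progenitor factors Sp8 (36 and 28 against 23 and 20, edgeR adjusted p = 0.00258) and Dlx2 (19 and 17 against 16 and 12, edgeR adjusted p = 0.0180) were among those that fell. Of 12 hypothalamic and pituitary regulators, 6 were tested, 3 fell and 0 rose (median log2 -0.97). Sim1 had 16 and 2 against 0 and 0 (edgeR adjusted p = 0.00681). Otp, a factor of hypothalamic neurons, had 13 and 6 against 5 and 2 (edgeR adjusted p = 0.0143). Sim1 and Otp reached the minimum sum for the test only through their E12.5 numbers, so that filter favoured a fall. Most Sim1 interactions came from E12.5 replicate 1 alone. Lhx1 had 26 and 29 against 24 and 27 (edgeR adjusted p = 0.0202). Without E12.5 replicate 1 edgeR called 0 genes of any kind (747 had an unadjusted p under 0.05), so each of these calls was lost there.

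The genes closest to Six3 in their pattern over the 4 libraries were Pou3f3, Jun and Sox2. Likeness was the Euclidean distance of log2 interactions per 10000 listed, with 0.5 added. Only tested genes (sum of at least 10) on other chromosomes were compared. Pou3f3, a neural POU factor, had 68, 65, 65 and 61 interactions at a distance of 0.19, Jun 61, 59, 63 and 58 at 0.24, and Sox2 the numbers above at 0.27. For Six6 the nearest of the tested genes were Prpf38a and Atp6v0a1, both with 5, 1, 4 and 0 at 0.85, and Stx18 with 5, 2, 3 and 0 at 0.88. Six6 itself was below the minimum sum, so sparser genes that may be nearer to it were not compared. Prpf38a shares a bin with Orc1 and Stx18 with Nsg1.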

How the data were processed

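Members, gene lists and tests were chosen with earlier results of these data known. Per the labels' protocols, frozen fetal forebrain was crosslinked, digested with MboI, ligated and enriched with an H3K4me3 antibody; for E12.5 replicate 1 part of this text stands in another field and the extraction field describes adult cortex. BWA, SAMtools and mm10 are named in the submitters' processing notes. The caller of interactions is not given in the sources used here. Each deposited list gives, per the file headers, pairs of 10 kb bins with a count of read pairs, an expected signal from the authors' model and an FDR (q-value), called per library. The deposited −log10 p of each cluster was not tested further, and the cluster size was deposited as a count of pairs. Counts were used as deposited.

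Genes, sequences and coordinates (1-based) came from RefSeq tables of GRCm38.p6. Contact number (interactions touching a gene body, sum at least 10) and contact strength (read pairs of contacts listed in all 4 libraries) were tested on all rows with edgeR 4.0.16 in R 4.3.3 (TMM, robust quasi-likelihood, stage as sole term, Benjamini-Hochberg at 0.05), tested first on simulated data. Single values had exact two-sided permutation tests over 6 assignments. DESeq2 1.42.0, other filters, scalings, a replicate block and leaving out each library were alternatives. The partner bins with most read pairs (5 per member), the 3 contacts with smallest p, stage-only contacts (5 per stage), list members past the threshold (5 per list), neighbours within 1 Mb and the 3 most similar genes were named. Some results that this rule names are not reported here.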

Additional observations from a re-analysis of the deposited data

How the results depend on the processing

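The number of genes called (584) was 105 with DESeq2, 262 with lists cut to 16075 interactions, 225 at an FDR under 0.0001, 159 within 200 kb, 370 with the replicate block, and 0 with clusters counted once (181 at an unadjusted p under 0.05) or read pairs in place of interactions (993), all but the first by edgeR. It was 0 to 390 with each library left out. Without TMM 434 rose and 212 fell, against 443 and 141. For Six3 the log2 change was -0.89 with DESeq2 (adjusted p = 0.135), 0.0079 with clusters counted once (adjusted p = 0.993) and -1.48 with read pairs (edgeR adjusted p = 0.0680), and -1.14 to -0.77 with each library left out. Contacts called (719) were 98 with DESeq2, 18 with the expected count as offset and 468 at an FDR under 0.0001, and 274 to 537 with each library left out. Six3 contacts called lower (11) were 1 with DESeq2, 0 with the expected offset and 4 to 8 with each library left out. Its distance difference was -17.5 kb on cluster summits, and 67 rather than 32 of its pairs recurred when adjacent bins counted. The causes were not tested. The share differences of Six3 and Six6 kept their sign under all alternatives run, but not their size. On cluster summits the mean Six3 share was 0.124% at E12.5 and 0.0968% at E16.5 (exact permutation p = 0.67). For Six6 the exact permutation p was 0.67 with lists cut to equal length. At an FDR under 0.0001 Six6 had 3 and 0 interactions at E12.5 against 2 and 0 at E16.5, which overlapped.

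Replicate numbers shared by the stages gave same-number correlations of 0.07 over genes and 0.13 over contacts, with 2 pairs. The replicate block gave 939 contacts called, 13 of Six3, and a Six3 log2 change of -0.93 (edgeR adjusted p = 0.0176). The number of libraries limits precision, and depth is unknown.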
